A study of Mus musculus with 2 samples.

Results

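Macrophages that take up lipid in adipose tissue, plaques and injured nerve tissue share a small set of transcripts, and 9 of these lipid-associated macrophage marker genes are described here in the aneurysmal mouse aorta. They are Trem2, Tyrobp, Gpnmb, Spp1, Cd9, Cd63, Lgals3, Htr2b and Gdf3, 9 of the 31253 features counted, matched by symbol. The genes were chosen by their measured levels in macrophage clusters and by their differences between these same libraries. Those levels and differences are therefore given as a description.

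The Gsdme-KO library came from the abdominal aorta of mice with global deletion of Gsdme, and the WT library from C57BL/6J mice. Mice of both groups carried a PPE-induced aneurysm; PPE is pancreatic elastase from pig, which breaks down elastin in the vessel wall, and no aorta without PPE was analysed here. Gsdme encodes gasdermin E, which forms pores in the plasma membrane after caspase cleavage. Age, sex, the number of mice, the time after PPE and the strain background of the deletion are not stated in the labels. BD Rhapsody single-cell RNA sequencing was used, which tags each captured transcript with a unique molecular identifier (UMI).

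TREM2 is a surface receptor for lipids and lipoproteins on myeloid cells, and it signals through the adaptor TYROBP, also called DAP12. Engagement of this pair in lipid-laden macrophages is known to accompany expression of lysosomal and lipid-handling genes. Spp1 and Gdf3 encode secreted proteins, Cd9 and Cd63 encode tetraspanins of the cell surface and of endosomes, and Lgals3 encodes the carbohydrate-binding protein galectin-3. Gpnmb encodes a transmembrane glycoprotein that is induced with lysosomal load, and Htr2b encodes serotonin receptor 2B.

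On mm10, in the GENCODE M21 annotation, all 9 genes are protein coding. Trem2 lies on chr17:48346401-48354147, Tyrobp on chr7:30413760-30417585, Spp1 on chr5:104435118-104441050, Cd63 on chr10:128900989-128912822 and Lgals3 on chr14:47367751-47386160, all on the plus strand. Htr2b lies on the minus strand at chr1:86099026-86111970, inside Psmd1, which runs on the plus strand. A further 3 members share chromosome 6 with Gsdme itself, which lies at chr6:50188888-50263862. These are Gpnmb at chr6:49036546-49070929, Cd9 at chr6:125460266-125494791 and Gdf3 at chr6:122605403-122610087. Gpnmb ends 1.12 megabases before Gsdme begins.

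Promoter sequences of 7 members are shown in part because several members varied together over macrophage clusters and factors of the myeloid lineage have short core motifs. The RefSeq promoter table for GRCm38.p6 held 8 entries for those 7 members, and the 250 bases before each start were searched on both strands for 4 motifs. The motif GAGGAAG, the core bound by the myeloid factor PU.1, was found in promoters of Trem2, Spp1 and Cd63. Of all 32851 promoters in the table, 10.6% held it. A second Spp1 entry, at chr5:104435942-104436191, held none of the 4 motifs. Within 100 bases of the start, GAGGAAG was in Trem2 and Cd63 only, and in 4.72% of all promoters. The M-box motif CATGTG, bound by MITF, was found in Cd9 and in 12.3% of all promoters. The E-box CACGTG of lysosomal genes (6.02% of all promoters) and the AP-1 motif TGAGTCA (4.46%) were in none of the 8 entries. No 2 of the 4 motifs overlapped in these windows. The sequences below are written 5′ to 3′ on the strand of the gene, with the motif in capitals, which reads as its reverse complement in Trem2, Cd63 and Cd9. The last is Gpnmb, the member with the lowest ratio among macrophage-like cells, whose window held none of the 4 motifs.
Trem2, chr17:48346151-48346400, plus strand: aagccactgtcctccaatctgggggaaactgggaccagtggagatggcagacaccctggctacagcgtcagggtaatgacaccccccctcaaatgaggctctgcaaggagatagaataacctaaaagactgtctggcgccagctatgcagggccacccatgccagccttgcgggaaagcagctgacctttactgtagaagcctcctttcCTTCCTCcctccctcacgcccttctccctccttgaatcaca
Spp1, chr5:104434861-104435110, plus strand: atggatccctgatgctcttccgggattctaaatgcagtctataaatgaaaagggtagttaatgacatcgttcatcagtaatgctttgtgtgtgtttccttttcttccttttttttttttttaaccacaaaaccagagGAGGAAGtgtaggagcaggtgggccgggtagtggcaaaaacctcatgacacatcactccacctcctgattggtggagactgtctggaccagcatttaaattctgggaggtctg
Cd63, chr10:128909095-128909344, plus strand: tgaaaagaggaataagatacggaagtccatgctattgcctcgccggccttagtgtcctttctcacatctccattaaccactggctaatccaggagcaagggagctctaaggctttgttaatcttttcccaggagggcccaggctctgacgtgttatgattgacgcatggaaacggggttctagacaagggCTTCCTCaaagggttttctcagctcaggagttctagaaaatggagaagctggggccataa
Cd9, chr6:125494761-125495010, minus strand: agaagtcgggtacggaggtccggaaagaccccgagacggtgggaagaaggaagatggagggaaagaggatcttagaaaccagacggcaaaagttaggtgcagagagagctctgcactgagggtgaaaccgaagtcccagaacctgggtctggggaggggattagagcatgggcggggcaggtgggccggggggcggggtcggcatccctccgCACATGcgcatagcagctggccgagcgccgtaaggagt
Gpnmb, chr6:49036268-49036517, plus strand: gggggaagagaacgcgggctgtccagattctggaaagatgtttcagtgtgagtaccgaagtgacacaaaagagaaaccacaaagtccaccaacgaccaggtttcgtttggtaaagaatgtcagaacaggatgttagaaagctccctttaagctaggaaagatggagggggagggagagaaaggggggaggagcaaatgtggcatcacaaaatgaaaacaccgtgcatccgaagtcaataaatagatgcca

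The Gsdme-KO library held 52532964 UMIs in 9034 barcodes and the WT library 38988898 UMIs in 7736 barcodes. After filtering, 8784 Gsdme-KO and 7619 WT cells remained, whose median UMI number was 4062 and 3835, and 73 barcodes occurred in both libraries. Gsdme, the deleted gene, had 2.55 CPM (UMIs scaled to a total of 1000000 per class and library) in Gsdme-KO cells and 5.53 CPM in WT cells, a ratio of 0.46. Cluster 5 ran the other way, with 22 Gsdme UMIs in Gsdme-KO and 4 in WT cells. The labels do not name the exons removed, so it is not known whether the counted reads lie in the deleted stretch. With 1 library per group there is no replicate and no test, and differences between mice, days or captures cannot be told apart from the genotype. Every interval below is a 95% interval that covers counting error only. Ratios are Gsdme-KO over WT, and a ratio of at least 1.5, or its inverse, over at least 50 UMIs is called higher or lower.

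Cells were clustered on genes other than the 9 members, giving 26 clusters. The macrophage-like class, named from markers such as C1qa, Csf1r and Adgre1, held 2021 cells (23.0%) in the Gsdme-KO library and 2313 cells (30.4%) in the WT library. It joined 4 clusters. Cluster 6, led by Cd72, Cx3cr1 and Ms4a7, held 896 Gsdme-KO and 1517 WT cells. Cluster 15, led by the resident-type genes Lyve1, Fcna and Folr2, held 1001 Gsdme-KO and 646 WT cells. Cluster 24, led by the cell-cycle genes Top2a and Pclaf and by Ngp, held 102 Gsdme-KO and 106 WT cells. It was named from 16 macrophage markers detected in its cells, of which none was among its 10 leading genes. Cluster 23, led by interferon genes, held 22 Gsdme-KO and 44 WT cells. Cluster 15 was thus the largest macrophage-like cluster in the Gsdme-KO library (49.5%, against 27.9% in the WT library), while cluster 6 was the largest in the WT library (44.3% in the Gsdme-KO library, against 65.6% in the WT library). Monocyte-like clusters 4 and 5 are given by number, because they changed class with the clustering. Cluster 4 was led by Arg1 and Bglap2 (288 Gsdme-KO and 320 WT cells), and cluster 5 by Lyz1, Ear2 and Ccr2 (669 Gsdme-KO and 443 WT cells).

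The receptor and its adaptor had different ranges. Among classes with at least 100 cells in each library, Trem2 was highest in macrophage-like cells, at 369 CPM in Gsdme-KO and 429.9 CPM in WT cells, and this class held 77.4% of its UMIs in the Gsdme-KO library and 82.7% in the WT library. Its next levels were in monocyte-like and platelet-like cells, whose intervals overlapped, and fibroblast-like cells had 9.37 CPM in the Gsdme-KO and 20.01 CPM in the WT library. Tyrobp, which pairs with many receptors, was instead highest in neutrophil-like cells, at 1497 CPM in the Gsdme-KO and 929 CPM in the WT library. Macrophage-like cells came after neutrophil-like and monocyte-like cells for Tyrobp, with 749 CPM in the Gsdme-KO and 696 CPM in the WT library.

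Of the secreted members, Spp1, the gene of osteopontin, was highest in monocyte-like cells among these larger classes, and above all in cluster 4, with 3036 CPM in the Gsdme-KO and 3136 CPM in the WT library. Cluster 5 held only 633 Spp1 UMIs in the Gsdme-KO and 394 in the WT library, against 5741 and 6557 in cluster 4. Macrophage-like cells had 693 CPM of Spp1 in the Gsdme-KO and 1008 CPM in the WT library. Their Mmp12 Fbxo32 group, described below, had 3498 and 3415 CPM, more than cluster 4. Neutrophil-like cells held 718 CPM of Spp1 in the Gsdme-KO and 729 CPM in the WT library. In the smaller smooth muscle-like class (179 Gsdme-KO and 61 WT cells) Spp1 reached 1658 CPM in the Gsdme-KO library, where 1 cell held 53.6% of the UMIs, and 2304 CPM in the WT library, where 1 cell held 38.8%. Gdf3, a member of the transforming growth factor beta family, was a rare transcript with 375 UMIs in all Gsdme-KO cells and 103 in all WT cells. Macrophage-like cells held 65.9% of the Gsdme-KO and 70.9% of the WT Gdf3 UMIs, and the intervals of its levels in macrophage-like, monocyte-like, platelet-like and B-like cells overlapped within each library.

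The surface and endosomal members were spread more widely. Cd9 had its highest level in platelet-like barcodes, with 4068 CPM in the Gsdme-KO and 4391 CPM in the WT library, followed by neutrophil-like cells with 1055 and 1052 CPM. Macrophage-like cells held only 19.7% of Cd9 UMIs in the Gsdme-KO and 33.2% in the WT library. Among classes with at least 100 cells in each library, Cd63 was highest in macrophage-like cells (685 CPM in the Gsdme-KO and 553 CPM in the WT library) and next in fibroblast-like cells (639.6 and 456 CPM). The smaller smooth muscle-like class lay above both, with 757 CPM of Cd63 in the Gsdme-KO and 764 CPM in the WT library, as did 8 Gsdme-KO and 4 WT mast and basophil-like cells. Lgals3 peaked in monocyte-like cells, and cluster 4 had 2989.7 CPM in the Gsdme-KO and 2644 CPM in the WT library. Gpnmb was high in cluster 6 and cluster 4 and also present in fibroblast-like cells, while Htr2b was low outside macrophage-like cells, monocyte cluster 4 and endothelial classes. In blood endothelial-like cells Htr2b had 20.7 CPM in the Gsdme-KO and 58.3 CPM in the WT library, with intervals that overlapped those of macrophage-like cells. In 30 Gsdme-KO and 18 WT lymphatic endothelial-like cells it had 34 and 18 UMIs, or 209.8 and 320.4 CPM. The label therefore holds unevenly in this tissue. Macrophage-like cells held most UMIs of Trem2, Htr2b and Gdf3. Their Gpnmb UMIs (3921 in the Gsdme-KO and 7457 in the WT library) outnumbered those of fibroblast-like cells (1510 and 1608). They also outnumbered those of monocyte clusters 4 (1177 and 1525) and 5 (61 and 55). However, Trem2, Htr2b, Gdf3, Gpnmb, Tyrobp, Cd9 and Cd63 did not mark them alone. Without the highest cell of each library, monocyte cluster 4 had 380 CPM of Trem2 in Gsdme-KO and 346 CPM in WT cells. Among the larger classes, Spp1 and Lgals3 were highest in monocyte-like cells.

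**Figure D1:**
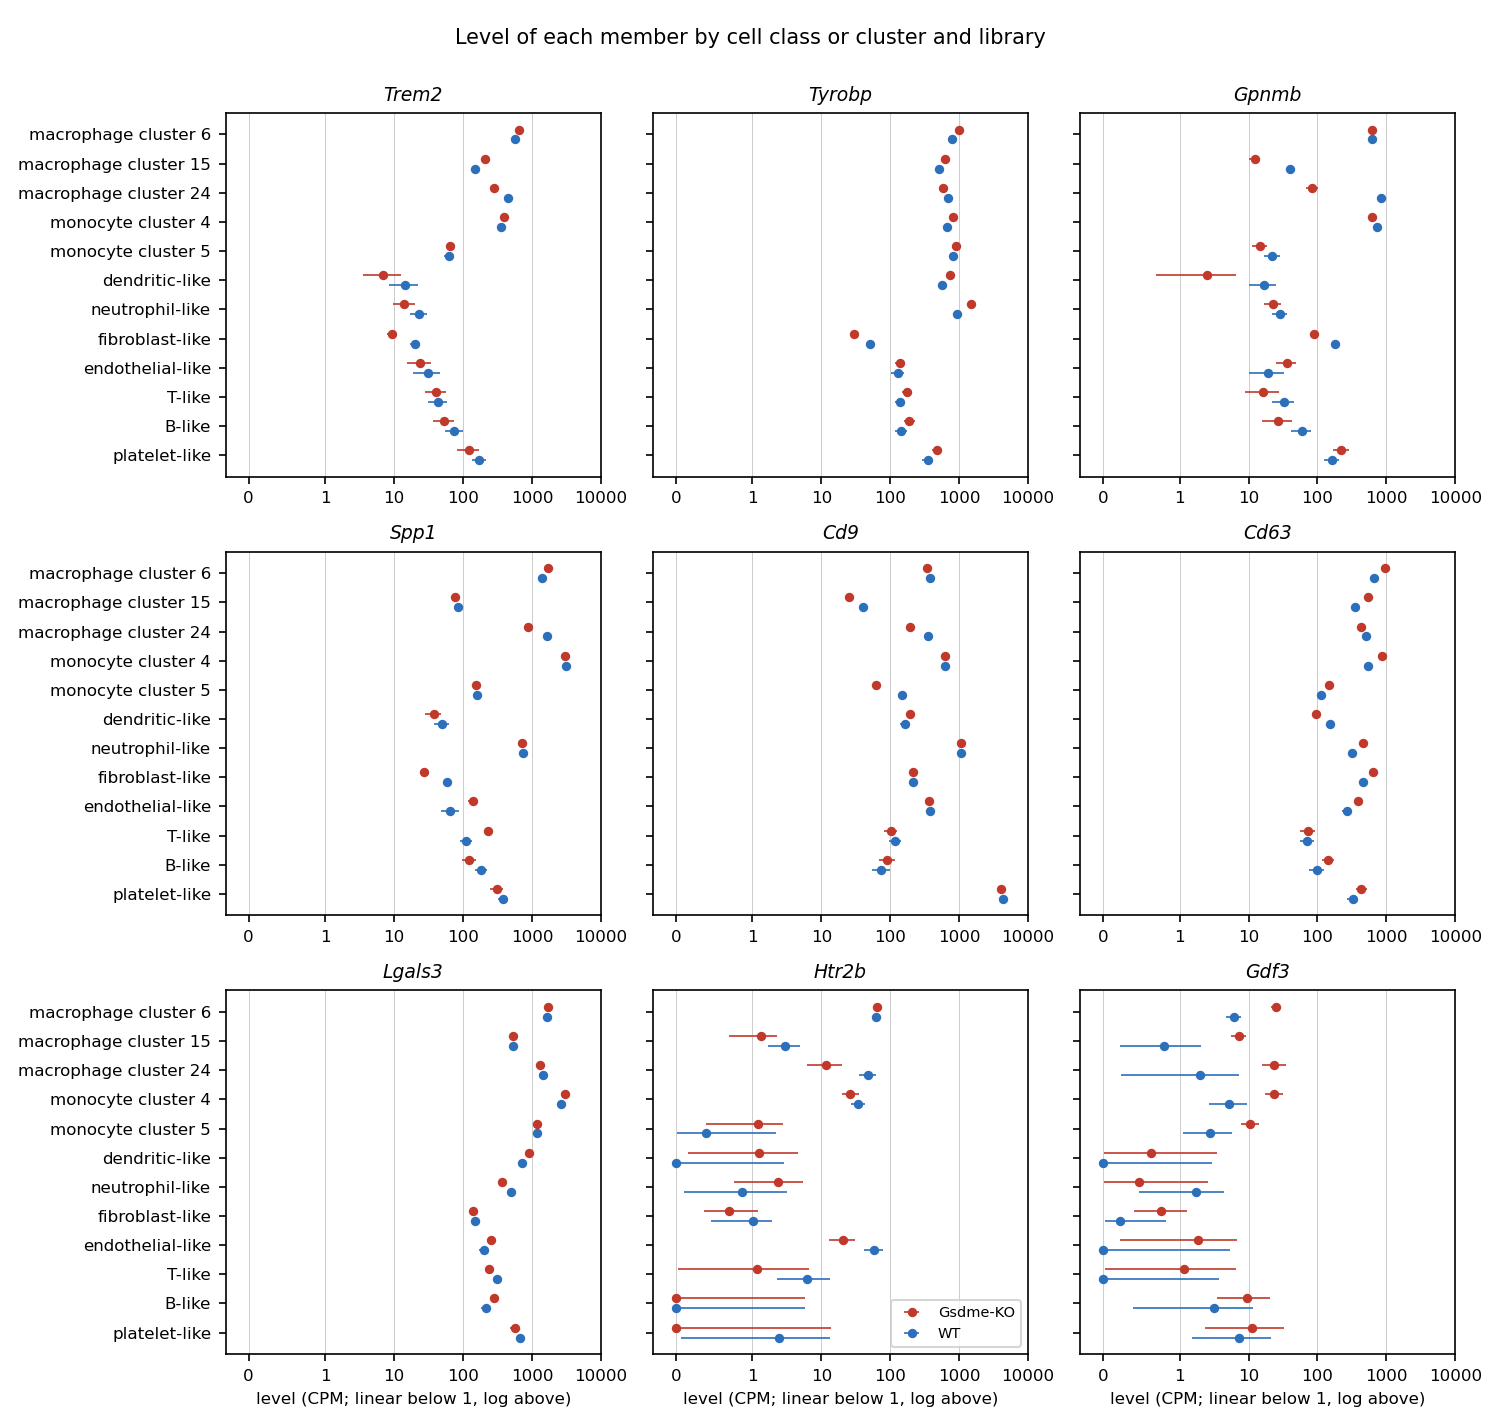
Level of each of the 9 members in CPM (horizontal axis, linear below 1 and logarithmic above) in macrophage and monocyte clusters and in other cell classes. Red points are the Gsdme-KO and blue points the WT library, and bars are 95% counting intervals. Cd9 was highest in platelet-like barcodes, near 4068 CPM in the Gsdme-KO and 4391 CPM in the WT library, and Gdf3 lay further right in the Gsdme-KO library in each of the 5 clusters at the top of its panel.

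Taking all macrophage-like cells together, 1 member of 9 was called higher in the Gsdme-KO library, where 4.76% of the 11669 genes counted were higher. Another 3 of 9 were called lower, where 7.33% of genes were lower. The member called higher was Gdf3, with 14.3 CPM (247 UMIs) in Gsdme-KO and 4.34 CPM (73 UMIs) in WT cells, a ratio of 3.30 (interval 2.53 to 4.35). Those called lower were Gpnmb, Cd9 and Htr2b. Gpnmb had 227 CPM in Gsdme-KO and 443 CPM in WT cells, a ratio of 0.51 (0.49 to 0.53). Cd9 had 149 CPM in Gsdme-KO and 275 CPM in WT cells, a ratio of 0.54 (0.52 to 0.57). Htr2b had 24.4 CPM in Gsdme-KO and 42.7 CPM in WT cells, a ratio of 0.57 (0.51 to 0.65). Psmd1, which overlaps Htr2b on the other strand, had 112 CPM in Gsdme-KO and 127 CPM in WT cells, a ratio of 0.88. In cluster 6, Psmd1 had 144 CPM in Gsdme-KO and 142 CPM in WT cells, where Htr2b had 65.1 and 62.6 CPM. In cluster 15, Psmd1 had 90.7 and 95.5 CPM, where Htr2b had 1.31 and 2.99 CPM. In B-like cells Psmd1 had 95.5 CPM in both libraries and Htr2b 0. Reads of the overlapping genes cannot be told apart, and the part of Psmd1 in the Htr2b value was not tested. The other 5 members stayed within 1.5-fold: Trem2 (ratio 0.86), Tyrobp (1.08), Spp1 (0.69), Cd63 (1.24) and Lgals3 (0.77). Spp1 lay close to the threshold and passed it at the finer resolution (0.666) and with separate clustering of the libraries (0.50). When each cell was first thinned at random to 1000 UMIs, so that large cells did not weigh more, Htr2b stayed past the threshold (0.64) while Gpnmb and Cd9, both at 0.67, fell just short of it. With a mean over cells, Cd9 (0.62) stayed past it and Gpnmb (0.71) and Htr2b (0.68) did not.

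Within cluster 6 no member was called lower (4.99% of 10214 genes were), and 1 of 9 was called higher (2.9% of genes were). Gpnmb had 609 CPM in Gsdme-KO cells and 609 CPM in WT cells, a ratio of 1.00 (0.96 to 1.04). Here 1 Gsdme-KO cell held 10.4% of the Gsdme-KO UMIs, and without the highest cell of each library the ratio was 0.95. In the finer groups described below, Gpnmb had ratios of 0.83 (Mmp12 Fbxo32), 1.24 (Cx3cr1 Ms4a7) and 0.85 (Il2ra Cd72). With separate clustering of the libraries, the matching ratio was 1.99 for Gpnmb and 1.55 for Spp1, both past 1.5-fold. Htr2b had 65.1 CPM in Gsdme-KO and 62.6 CPM in WT cells, a ratio of 1.04. For Cd9 the levels were 345 CPM in Gsdme-KO and 381 CPM in WT cells, a ratio of 0.91. Trem2 had 657 CPM in Gsdme-KO and 566 CPM in WT cells (ratio 1.16), and Spp1 had 1691 and 1414 CPM (ratio 1.20). Tyrobp, with 984 CPM in Gsdme-KO and 785 CPM in WT cells, had a ratio of 1.25, and Cd63, with 967 and 664 CPM, had a ratio of 1.46. The member called higher was again Gdf3, with 24.8 CPM (150 UMIs) in Gsdme-KO and 6.10 CPM (64 UMIs) in WT cells, a ratio of 4.06 (3.01 to 5.53).

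In cluster 15, the Lyve1 Fcna macrophages, levels of all 9 members were lower than in cluster 6 in both libraries. Of 8 members with enough UMIs, Cd63 and Gdf3 were called higher (3.84% of genes were) and Gpnmb and Cd9 lower (5.09% were). Cd63 had 544 CPM in Gsdme-KO and 346 CPM in WT cells, a ratio of 1.57 (1.49 to 1.66). Gdf3 had 7.17 CPM (71 UMIs) in Gsdme-KO and 0.80 CPM (4 UMIs) in WT cells, a ratio of 8.99 with a wide interval of 3.36 to 33.9. Trem2 had 205 CPM in Gsdme-KO and 150 CPM in WT cells, a ratio of 1.36. The lower value of Gpnmb leaned on few cells: it had 12.4 CPM in Gsdme-KO and 40.3 CPM in WT cells, but 1 WT cell held 57.4% of the WT UMIs. Leaving out the cell with most Gpnmb UMIs in each library gave 10.01 CPM in Gsdme-KO and 17.2 CPM in WT cells, a ratio of 0.58 in place of 0.31.

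**Figure D2:**
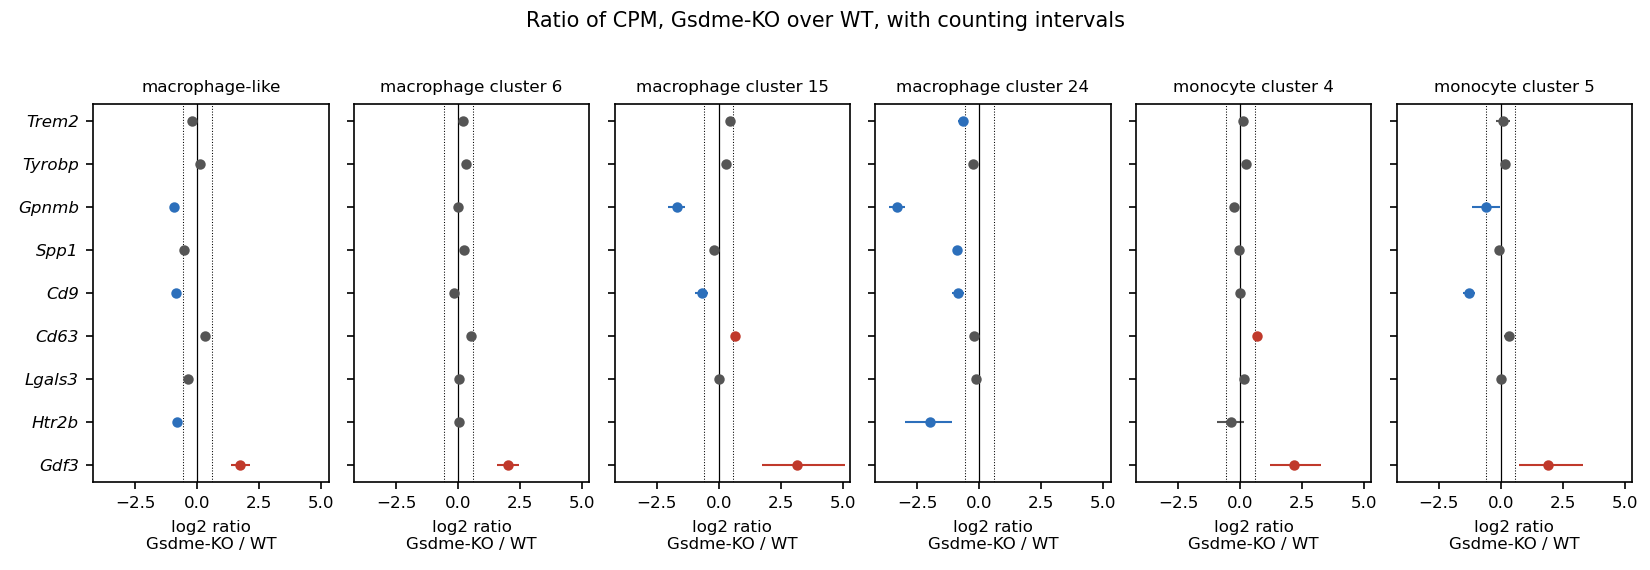
Log2 ratio of CPM, Gsdme-KO over WT, for each member in all macrophage-like cells, in macrophage clusters 6, 15 and 24 and in monocyte clusters 4 and 5, with 95% counting intervals; dotted lines mark 1.5-fold. Red points are called higher, blue points lower and grey points neither, and members with under 50 UMIs are not drawn. Given as plain ratios and not as log2, Gpnmb had 0.51 among all macrophage-like cells, 1.00 in cluster 6 and 0.10 in cluster 24.

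The class ratios and the cluster 6 ratios thus differed, and so did the cell numbers per cluster in the libraries. The Gsdme-KO levels of the 4 clusters were then averaged with the cluster weights of the WT library. A weight was a cluster's share of the class UMIs in that library, not of its cells. Median UMIs per cell were 6367 in Gsdme-KO and 6537 in WT cells of cluster 6, and 9032 and 7454 in cluster 15. With WT weights, Gpnmb had a ratio of 0.88, Cd9 0.86 and Htr2b 0.98, all short of 1.5-fold. With the same weights Spp1 stood at 1.12, Trem2 at 1.15 and Lgals3 at 1.02, on the other side of 1 from their class ratios. Tyrobp stood at 1.22, Cd63 at 1.44 and Gdf3 at 4.38. Conversely, WT levels averaged with the Gsdme-KO cluster weights gave values below 1 for all 9 members, from 0.63 for Htr2b to 0.89 for Tyrobp. In these sums over a class, fewer cells of a kind and less RNA per cell cannot be told apart, and the cluster weights themselves come from 1 library per group.

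**Figure D3:**
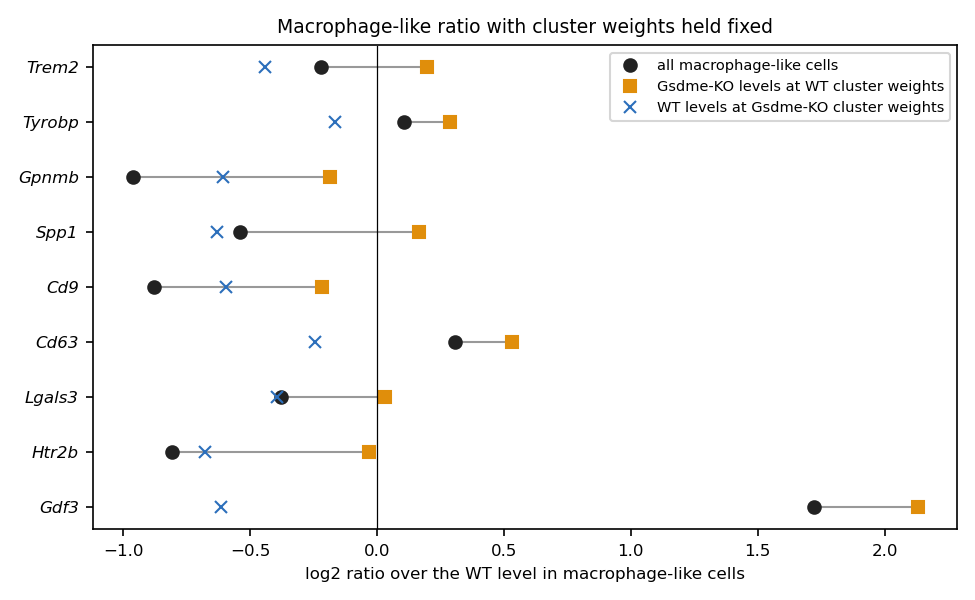
Log2 ratio over the WT level in macrophage-like cells for each member: black circles are the observed Gsdme-KO level, orange squares the Gsdme-KO cluster levels averaged with WT cluster weights, and blue crosses WT cluster levels averaged with Gsdme-KO cluster weights. Given as plain ratios and not as log2, Gpnmb moves to 0.88, Cd9 to 0.86 and Htr2b to 0.98 with WT weights. Gdf3 stays far to the right, with a plain ratio of 4.38. Cluster weights are shares of the class UMIs.

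At a finer resolution, 3 groups came mostly from cluster 6, and their Gpnmb levels lay further apart from each other than the libraries did within a group. The Mmp12 Fbxo32 group (300 Gsdme-KO and 370 WT cells) had the highest levels of 8 members among the groups from clusters 6 and 15 in the WT library. Its Gpnmb was 1509.8 CPM in Gsdme-KO and 1809 CPM in WT cells, its Spp1 3498 and 3415 CPM, and its Trem2 950.3 and 865 CPM. The Cx3cr1 Ms4a7 group (351 Gsdme-KO and 593 WT cells) was intermediate, with Gpnmb at 349 CPM in Gsdme-KO and 282 CPM in WT cells and Trem2 at 689 and 582 CPM. The Il2ra Cd72 group (292 Gsdme-KO and 547 WT cells) had little Gpnmb, 22.7 CPM in Gsdme-KO and 26.7 CPM in WT cells, but had Lgals3 at 1193 CPM in Gsdme-KO and 1219 CPM in WT cells. All 3 groups took a smaller share of the Gsdme-KO library, with 3.42%, 3.996% and 3.32% of its cells, against 4.86%, 7.78% and 7.18% of WT cells. Gdf3 was higher in the Gsdme-KO library in each, with ratios of 5.12, 7.11 and 1.75, the last from 29 Gsdme-KO and 31 WT UMIs with an interval of 1.02 to 2.996.

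**Figure D4:**
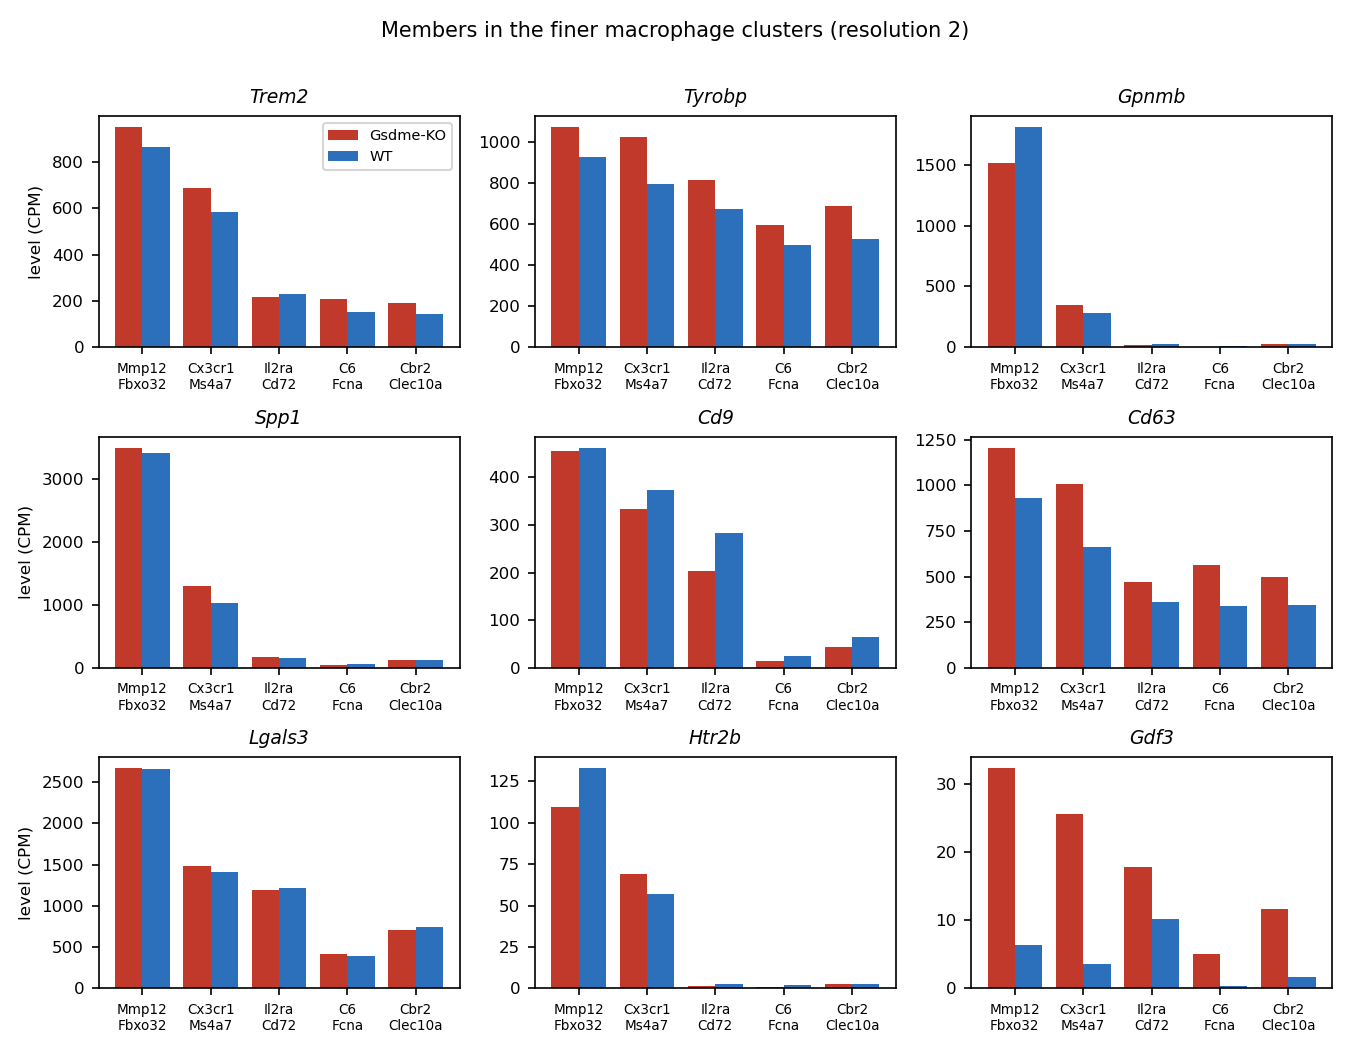
Level of each member in CPM (vertical axis from 0, with its own scale in each panel) in the finer macrophage groups, named by leading genes, with Gsdme-KO in red left of WT in blue. The first 3 groups come mostly from cluster 6 and the last 2 from cluster 15. Gpnmb, Spp1 and Htr2b fall steeply from the Mmp12 Fbxo32 group to the Il2ra Cd72 group, while Gdf3 bars are taller in the Gsdme-KO library in every group.

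Cluster 24, the cycling macrophage-like cluster, departed from this pattern. There 5 of 8 members with enough UMIs were called lower (11.2% of 6045 genes were) and none higher (6.87% were). Gpnmb had 84.5 CPM (93 UMIs) in Gsdme-KO and 839.9 CPM (848 UMIs) in WT cells, a ratio of 0.10 (0.08 to 0.12). It was detected in 15.7% of Gsdme-KO and 48.1% of WT cells of the cluster, which had medians of 9832.5 and 10205.5 UMIs. Leaving out the cell with most Gpnmb UMIs in each library gave 55.8 CPM in Gsdme-KO and 689.8 CPM in WT cells. Htr2b had a ratio of 0.25, Spp1 of 0.53, Cd9 of 0.55 and Trem2 of 0.64. Tyrobp (0.84), Cd63 (0.86) and Lgals3 (0.91) stayed within 1.5-fold. Gdf3, below the count limit, had 26 UMIs in Gsdme-KO and 2 in WT cells, a ratio of 11.9 (2.99 to 104), with 19 of the 26 UMIs in 1 cell.

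Other genes moved beside these in cluster 24. Of 11 counted genes of a resident-type macrophage list, 10 were higher, and their summed level was 7509.9 CPM in Gsdme-KO and 3242 CPM in WT cells. Neutrophil genes summed to 79.9 CPM in Gsdme-KO and 537 CPM in WT cells, with 2 of the 8 at 0 in the Gsdme-KO library and none in the WT library. Of 17 lipid-handling genes, 9 were called lower and none higher, with a median log2 ratio of -0.60 against -0.08 over all genes. Their part in the lower member levels was not tested.

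The monocyte clusters carried the Gdf3 difference as well. In cluster 4, Gdf3 (ratio 4.52, interval 2.30 to 9.70) and Cd63 (1.59, 1.47 to 1.72) were called higher among 9 members (3.99% of genes were), and none lower (5.82% were). Gdf3 had 45 UMIs in Gsdme-KO and 11 in WT cells there, and Cd63 had 866 CPM in Gsdme-KO and 545 CPM in WT cells. Gpnmb, at 622 CPM in Gsdme-KO and 729 CPM in WT cells, and Spp1 and Cd9, with ratios of 0.97 and 0.99, stayed within the threshold. In cluster 5, Gdf3 (3.77, interval 1.68 to 9.92) was called higher of 8 members (5.6% of genes were). Cd9 and Gpnmb were called lower (6.16% were): Cd9 had 62.0 CPM in Gsdme-KO and 150.5 CPM in WT cells, a ratio of 0.41. Gpnmb had 14.6 CPM in Gsdme-KO and 22.0 CPM in WT cells, near the 1.5-fold limit, and without the cell with most UMIs its ratio was 0.75. The direction turned to 1.36 with at least 1000 UMIs per cell and to 1.34 with thinning.

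In fibroblast-like cells, 4 of 7 members with enough UMIs were called lower (11.4% of 11748 genes were) and none higher (4.03% were). Gpnmb had 87.9 CPM in Gsdme-KO and 182 CPM in WT cells, a ratio of 0.48 (0.45 to 0.52), and was detected in 35.4% of Gsdme-KO and 51.8% of WT fibroblast-like cells, at medians of 10024.5 and 8483 UMIs. Spp1 had 27.3 CPM in Gsdme-KO and 58.0 CPM in WT cells. Trem2 and Tyrobp, at 9.37 and 30.2 CPM in Gsdme-KO cells and 20.01 and 50.4 CPM in WT cells, were the other members called lower. Cd63 was within the threshold at 640 CPM in Gsdme-KO and 456 CPM in WT cells, a ratio of 1.40. Transcripts of 9 macrophage genes such as C1qa, all 9 called lower, summed to 261 CPM in Gsdme-KO and 555 CPM in WT fibroblast-like cells, with none at 0. Their part in the lower member levels was not tested. TMM scaling, which normalises on the bulk of genes, shifted all log2 ratios of this class by 0.17. With it Tyrobp, at 0.67, no longer passed 1.5-fold, Cd63 passed it at 1.58, and Trem2, Gpnmb and Spp1 stayed past it.

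Neutrophil-like cells had 1 member called higher (5.47% of 6542 genes were) and 1 lower (7.32% were). Tyrobp had 1497 CPM in Gsdme-KO and 929 CPM in WT cells, a ratio of 1.61 (1.52 to 1.70), and after thinning each cell at random to 1000 UMIs it was detected in 74.3% of Gsdme-KO and 57.7% of WT cells. The same share in B-like cells, taken here as a class that should lack Tyrobp, was 4.85% in Gsdme-KO and 8.78% in WT cells. Trem2 was lower, but it had only 30 UMIs in Gsdme-KO and 53 in WT neutrophil-like cells, where the 9 macrophage genes summed to 805 and 962 CPM; their part was not tested. Cd9 (1055 CPM in Gsdme-KO and 1052 CPM in WT cells) and Spp1 (718 and 729 CPM) hardly differed there. Cd63 had a ratio of 1.45 in the class, which joined clusters 8 and 10. Taken alone, cluster 8 had Tyrobp and Cd63 called higher of 7 members (5.55% of genes were). Cluster 10 had only Cd63 called higher of 5 members (7.21% of genes were), so the Tyrobp call did not hold there.

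To count members per cell independently of depth, each cell was thinned at random to 1000 UMIs, leaving out shallower cells (69 Gsdme-KO and 121 WT macrophage-like cells). At least 5 of the 9 members were then detected in 9.89% of Gsdme-KO and 12.6% of WT macrophage-like cells (intervals 8.60 to 11.3% and 11.3 to 14.1%). In cluster 6 the share was 21.3% of Gsdme-KO and 17.8% of WT cells, and in cluster 4 it was 23.1% and 21.3%. In cluster 15 it was 0.50% of Gsdme-KO and 0.62% of WT cells, no more than in neutrophil-like cells (1.37% and 0.95%). Cluster 24 had 7.37% of 95 Gsdme-KO and 22.2% of 99 WT cells. Without thinning, the shares of macrophage-like cells were 46.9% in the Gsdme-KO and 57.8% in the WT library. In B-like cells none of 165 Gsdme-KO and none of 205 WT cells had 5 members.

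**Figure D5:**
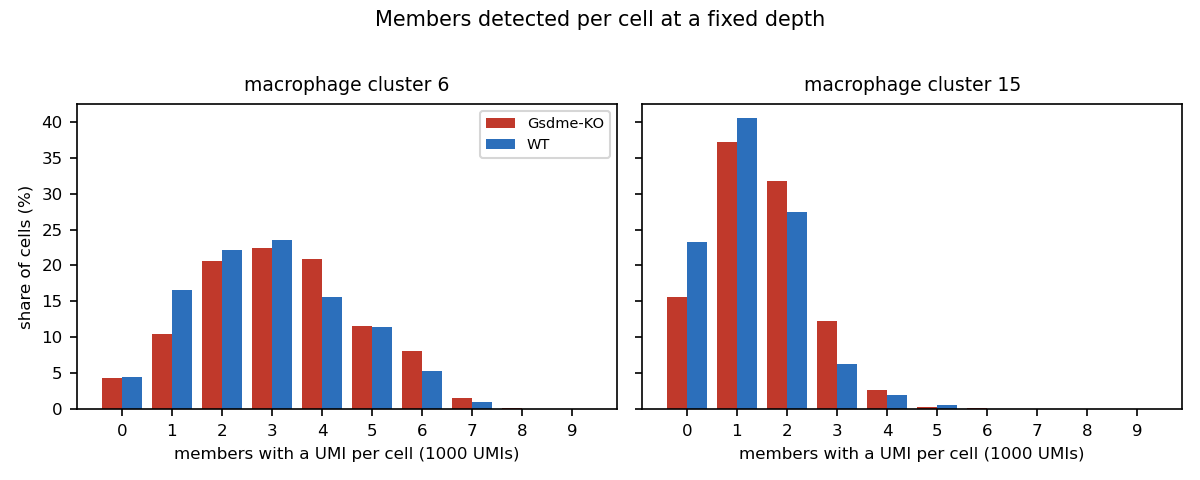
Share of cells (vertical axis, percent) by the number of members with at least 1 UMI after thinning to 1000 UMIs, in macrophage cluster 6 and macrophage cluster 15, with Gsdme-KO in red left of WT in blue. Cells with 5 or more members made up 21.3% of Gsdme-KO and 17.8% of WT cells in cluster 6, and 0.50% and 0.62% in cluster 15.

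Some members occurred together within cells of cluster 6, and other pairs did not. Of thinned cells with Trem2, 32.2% in the Gsdme-KO and 28.4% in the WT library also had Gpnmb. Among cells without Trem2 the shares were 13.3% in the Gsdme-KO and 12.3% in the WT library. Spp1 was found in 68.8% of Gsdme-KO and 63.7% of WT cells with Gpnmb, and in 36.7% and 30.8% of those without it. Tyrobp was spread more evenly, in 64.8% of Gsdme-KO and 57.5% of WT cells with Gpnmb and in 58.7% and 53.4% of those without. Cd63 was found in 54.1% of Gsdme-KO and 43.9% of WT cells with Cd9, and in 54.2% and 41.6% of those without. Gdf3 was detected in too few thinned cells to read a pairing (16 Gsdme-KO and 6 WT cells): in the Gsdme-KO library Tyrobp was in 43.8% of them and in 60.3% of the others. The UMIs of some members were concentrated: the 5% of cluster 6 cells with most Gpnmb held 58.6% of its UMIs in the Gsdme-KO and 67.4% in the WT library, against 16.2% and 16.9% for Tyrobp. Gdf3 was detected in 6.36% of Gsdme-KO and 2.31% of WT cells of cluster 6 without thinning, at medians of 6367 and 6537 UMIs. In B-like cells, Gdf3 was detected in 1.08% of Gsdme-KO and 0.90% of WT cells.

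Across the 26 clusters, with both libraries summed, the members fell into looser and tighter pairs. These correlations describe cluster levels that share libraries, with n = 26, and have no test. Pearson's r of log2(CPM + 1) was 0.74 for Trem2 and Lgals3, 0.73 for Trem2 and Gdf3, and 0.63 for Trem2 and Gpnmb, while Cd9 and Trem2 had -0.05. The genes most like Trem2 were Abcc3, Apoe and Ctsb (r = 0.86, 0.83 and 0.83), and those most like Tyrobp were Osm, Itgam and Efhd2 (0.97, 0.95 and 0.95). For Gpnmb they were Syngr1, Arg1 and Gclm (0.77, 0.76 and 0.76), and for Spp1 Slc40a1, Pgk1 and Glipr1 (0.80, 0.78 and 0.77). Cd9 was most like Pdlim7, Actn1 and Nfe2 (0.86, 0.76 and 0.75), and Cd63 like Rcan1, Rhob and Emilin1 (0.75, 0.73 and 0.66). Lgals3 was most like Rap2b, Atp6v1c1 and Tnfsf9 (0.88, 0.86 and 0.85), and Htr2b like Pald1, Sgk1 and Pkn3 (0.79, 0.74 and 0.72). Gdf3 was most like Bach2os, Dppa3 and Lyz2 (0.90, 0.89 and 0.88).

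The genes around the members in macrophage-like cells are given by list, beside a median log2 ratio of -0.07 over all genes. Of 16 genes of TREM2-TYROBP signalling, 15 were below 1 and none passed 1.5-fold, with a median of -0.30. The lowest by interval were Blnk, an adaptor (113 CPM in Gsdme-KO and 168 CPM in WT cells), and Pik3r1, a kinase subunit (150.5 and 215 CPM). Of 9 counted receptors that pair with TYROBP, 1 was lower, Sirpb1c (32.8 CPM in Gsdme-KO and 59.5 CPM in WT cells), with a median of -0.45. Lipid handling had 3 lower of 19 (median -0.21), among them Lpl, lipoprotein lipase, with 212 CPM in Gsdme-KO and 389 CPM in WT cells, and the scavenger receptor Cd36, with 319.9 and 552 CPM. Lysosomal genes had 1 higher and 4 lower of 19 (median -0.09). The protease Ctsl was higher at 793 CPM in Gsdme-KO and 492 CPM in WT cells, and Ctsk was lower at 13.5 and 50.6 CPM.

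For the ligands and receptors of the members, osteopontin receptors had 2 lower of 8 (median -0.46), Itgb5 with 131 CPM in Gsdme-KO and 249.8 CPM in WT cells, and Itgb3 with 19 UMIs in Gsdme-KO and 49 in WT cells. Receptors and partners of GDF3 had no call among 6 (median -0.11). In the serotonin axis Maoa, monoamine oxidase A, was higher of 2 counted, with 27.0 CPM in Gsdme-KO and 16.6 CPM in WT cells (median 0.58). Of the MiT-TFE factors 1 of 4 was lower, Tfeb (8.002 CPM in Gsdme-KO and 12.8 CPM in WT cells, list median -0.22). Other tetraspanins had 1 lower of 12 (median 0.04) and other galectins and their enzymes 1 lower of 6, Mgat5 (median 0.00). Genes reported for lipid-associated cells elsewhere had 2 higher and 5 lower of 15 (median -0.43): the chemokine Ccl6 had 3673 CPM in Gsdme-KO and 1353 CPM in WT cells, and the receptor tyrosine kinase Axl 126 and 235 CPM.

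Markers of other cells moved as well. Resident-type macrophage genes had 8 higher and 1 lower of 12 (median 0.80), with Lyve1 at 1699 CPM in Gsdme-KO and 594 CPM in WT macrophage-like cells. Neutrophil genes summed to 105 CPM in Gsdme-KO and 191 CPM in WT macrophage-like cells (4 lower of 7, 1 of 8 at 0 in the Gsdme-KO library), and fibroblast genes to 464 and 578 CPM (no call of 7). Macrophage genes had 1 higher of 9, Mrc1 (median -0.06). Within cluster 6, beside -0.05 over all genes, the medians were -0.13 for TREM2-TYROBP signalling, -0.06 for lipid handling and -0.13 for the lysosome. The resident-type list kept a median of 0.37 there.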

How the data were processed

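The authors deposited 1 sparse table per library, holding UMI counts that were not normalised. STARsolo, CASAVA 1.8 and mm10 are listed in the submitters' processing notes. No label says whether counting used strand, so reads of Htr2b and Psmd1, and of Cd9 and its antisense genes, cannot be told apart. Members and gene lists were chosen with earlier results of these data known. Barcodes with at least 500 UMIs and 250 genes and at most 25% mitochondrial UMIs were kept. Scanpy 1.11.5 was used on log values at 10000 UMIs per cell, with 2000 variable genes without the members, 30 principal components, 15 neighbours and Leiden resolution 1. Classes were named from 20 marker lists. Scrublet marked 1 Gsdme-KO and 0 WT cells, so it did not work and doublets remain. Sums per class were given as CPM with exact Poisson intervals, ratios with exact conditional binomial intervals, and shares with Clopper-Pearson intervals. The ratio interval was checked on simulated Poisson counts, the error it assumes. That check cannot show how it does where UMIs are concentrated in few cells. Likeness used genes with at least 200 UMIs, and the 3 with the highest r were named. Of each of 15 lists, up to 2 genes each way, ranked by the interval end nearest 1, could be named, and the text names part of them. Alternatives were other cell filters, resolutions, clusterings, thinning, scalings (TMM from edgeR 4.0.16 and median-of-ratios), averaging, floors and folds. Leaving out shared barcodes, leaving out the cell with most UMIs of a member, and fixed cluster weights were added after seeing the data.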

Additional observations from a re-analysis of the deposited data

Results flagged for a closer look

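Tyrobp, Gpnmb and Spp1 were called higher in one cell class and lower in another, and these differences between classes were not tested. Tyrobp had a ratio, Gsdme-KO over WT, of 1.61 in neutrophil-like cells and 0.60 in fibroblast-like cells. Both values changed little without the cell holding most Tyrobp UMIs in each library (1.62 and 0.60).

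Gpnmb had a ratio of 1.88 in endothelial-like cells, with an interval of 0.98 to 3.85 that includes 1. The others were below 1: 0.45 in B-like cells, 0.48 in fibroblast-like cells, 0.51 in macrophage-like cells and 0.59 in monocyte-like cells. In endothelial-like cells 1 Gsdme-KO cell held 71.1% of the 38 Gsdme-KO UMIs, and without the highest cell of each library the ratio was 0.66, from 11 UMIs in each library. In B-like cells 1 WT cell held 70.3% of the 37 WT UMIs, and the ratio without the highest cells was 0.62. In fibroblast-like cells it stayed at 0.48 without them.

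Spp1 had ratios of 2.10 in T-like cells, 2.12 in endothelial-like cells and 0.47 in fibroblast-like cells. In T-like cells 1 Gsdme-KO cell held 57.1% of 198 UMIs, and without the highest cell of each library the ratio was 1.09. In endothelial-like cells 1 Gsdme-KO cell held 49.3% of 148 UMIs, and the ratio without the highest cells was 1.23. The fibroblast-like ratio was 0.44 without them.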

How the results depend on the processing

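Of 29 ratios past 1.5-fold, 379 values under alternatives were computed, and 331 lay past the fold on either side of 1. Those 331 include values that changed side and passed the fold in the other direction. Of the 379, 284 lay within the counting interval of the reported ratio and 7 changed side of 1. Of 45 ratios not past it, 32 of 595 values under alternatives passed it, 7 of them for Gpnmb in neutrophil-like cells (0.47 to 0.64). The 7 that changed side were all in monocyte cells. Clustering each library on its own gave monocyte-like ratios of 10.3 for Gpnmb, 1.39 for Cd9 and 34.2 for Htr2b, resolution 0.5 gave 1.62 for Htr2b, and thinning to 1000 UMIs gave 2.15 for Htr2b. In cluster 5, Gpnmb had 1.36 with at least 1000 UMIs per cell and 1.34 with thinning. The cause was not tested. Among macrophage-like cells, Gdf3 ranged from 2.59 to 4.53 and Gpnmb from 0.43 to 0.88, its highest value with WT cluster weights. The count of members called higher was 0 with thinning, where Gdf3 kept a ratio of 3.65 but had under 50 UMIs. The count called lower was 1 with thinning (Gpnmb 0.67, Cd9 0.67), 1 with the mean over cells (Gpnmb 0.71, Htr2b 0.68) and 0 at 2-fold. The share of macrophage-like cells with at least 5 members was, in the Gsdme-KO and WT libraries, 46.9% and 57.8% with no thinning and 23.8% and 28.1% at 2000 UMIs. At least 3 members were found in 37.6% of Gsdme-KO and 42.0% of WT cells, and at resolution 0.5 the Gsdme-KO share was 11.6%. In cluster 24, Gpnmb stayed between 0.06 and 0.17. No paired analysis was possible because there was 1 library per group. Low counts limit Gdf3 and Htr2b outside macrophages.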

Other observations

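Gdf3 lies between Apobec1 and Dppa3 on chromosome 6. These neighbours were looked at after the Gdf3 values were seen. In macrophage-like cells Apobec1 had 237 CPM in the Gsdme-KO and 298 CPM in the WT library, a ratio of 0.79 (0.76 to 0.83). Dppa3 had 7.13 CPM in the Gsdme-KO and 6.72 CPM in the WT library, a ratio of 1.06 (0.82 to 1.38), although its level over clusters was among those most like that of Gdf3. Malsu1, the gene next to Gpnmb, had 16.2 CPM in the Gsdme-KO and 12.1 CPM in the WT library, a ratio of 1.34. Neither Apobec1 nor Dppa3 passed 1.5-fold.

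Trem2 was also counted outside the blood lineages. In mesothelial-like cells, a cluster of 58 Gsdme-KO and 44 WT cells, it had 320.5 CPM (147 UMIs) in the Gsdme-KO and 89.6 CPM (23 UMIs) in the WT library, a ratio of 3.57 (2.29 to 5.82). It was detected in 60.3% of Gsdme-KO and 20.5% of WT mesothelial-like cells, at medians of 5905.5 and 3650 UMIs. Tyrobp had only 10 UMIs in the Gsdme-KO and 12 in the WT library in the same cells. Without the cell with most Trem2 UMIs in each library the ratio was 4.14.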
